A study of Homo sapiens with 14 samples.

Results

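The loci of the enzymes that write, maintain and erase DNA methylation were examined in chromatin immunoprecipitation sequencing (ChIP-seq) peak lists from human embryonic stem cells (hESCs). The 8 genes were chosen by function, out of 20007 protein-coding genes of the GENCODE annotation: DNMT1, DNMT3A and DNMT3B as writers, DNMT3L and UHRF1 as cofactors, and TET1, TET2 and TET3 as erasers. Each locus was the hg38 gene body with 60 kb on each side, and the 8 windows covered 1686 kb in all. All cells were of the established hESC line WIBR3, grown on mitomycin C-inactivated mouse embryonic fibroblast feeders, either in conventional serum-containing medium with FGF2 (primed) or in 5i/L/A, a serum-free medium with kinase inhibitors, LIF and activin A (naive). Naive cells had been converted from primed cells and expanded polyclonally. Antibodies were directed against BRG1 and BRM, the alternative ATPases of the BAF chromatin remodelling complex, against its core subunit BAF155, and against the transcription factor SOX2. Of 14 samples, 4 were inputs, and the other 10 each came with 1 peak list.

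DNMT1 copies the methylation pattern onto the new DNA strand at replication, and UHRF1 brings it to hemimethylated sites. DNMT3A and DNMT3B methylate unmethylated DNA, helped by DNMT3L, which resembles them but has no catalytic activity, and TET1, TET2 and TET3 oxidise methylcytosine on the way to its removal. Naive hESCs are known for a genome with far less DNA methylation than primed hESCs, and DNMT3L is commonly used as a gene of the naive state.

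The sequences that the results below turn on are printed first, on the plus strand of hg38 unless stated. Each is the 200 bases at the midpoint of a peak or region. Capitals mark matches on either strand to a SOX core (CATTGT or CTTTGT), an octamer (ATGCNAAT), a KLF core (GGGNGTGG), a TFAP2 palindrome (GCCNNNGGC) or a ZIC core (CCTGCTG). The first 4 windows are SOX2 peaks, shown because SOX2 was called at few places in these loci.
DNMT3B, primed SOX2 peak inside the gene (chr20:32780865-32781064): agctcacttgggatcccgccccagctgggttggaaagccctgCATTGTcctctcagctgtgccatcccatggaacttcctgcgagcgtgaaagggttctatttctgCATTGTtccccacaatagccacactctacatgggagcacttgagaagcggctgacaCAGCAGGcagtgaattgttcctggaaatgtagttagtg
DNMT3B, primed SOX2 peak upstream (chr20:32751818-32752017): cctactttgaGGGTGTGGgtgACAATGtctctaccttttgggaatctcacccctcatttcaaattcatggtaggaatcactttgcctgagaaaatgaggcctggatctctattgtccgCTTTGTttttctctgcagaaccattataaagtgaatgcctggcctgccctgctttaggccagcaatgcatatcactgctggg
TET1, primed SOX2 peak in an intron (chr10:68600328-68600527): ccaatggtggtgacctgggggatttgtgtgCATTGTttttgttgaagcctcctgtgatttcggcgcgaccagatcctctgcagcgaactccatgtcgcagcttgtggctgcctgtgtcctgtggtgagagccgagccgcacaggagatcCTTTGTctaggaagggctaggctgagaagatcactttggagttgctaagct
TET2, naive SOX2 peak in an intron (chr4:105203380-105203579): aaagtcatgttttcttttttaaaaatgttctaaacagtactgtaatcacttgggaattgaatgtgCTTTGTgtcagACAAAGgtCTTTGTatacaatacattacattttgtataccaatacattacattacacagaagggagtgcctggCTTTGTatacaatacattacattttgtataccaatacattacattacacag

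Both DNMT3B windows and the TET1 window held 2 SOX cores each, and the TET2 window held 4. Of these 4, 2 head copies of the same longer stretch, so they are not separate matches. Of all SOX2 peaks, 59.1% in the naive list and 59.5% in the primed list had a SOX core in a window of this length. The intronic DNMT3B window also held a ZIC core, present in 13.5% of primed and 3.97% of naive SOX2 peaks, and the upstream one held a KLF core, present in 7.21% of primed peaks. None of the 4 windows held the octamer, present in 13.0% of primed and 19.2% of naive SOX2 peaks.

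The next pair are BAF regions called in 1 state alone, shown because they are the naive-only region of highest fold outside exons at DNMT3L and its primed-only counterpart at TET2.
DNMT3L, naive-only region upstream (chr21:44267946-44268145): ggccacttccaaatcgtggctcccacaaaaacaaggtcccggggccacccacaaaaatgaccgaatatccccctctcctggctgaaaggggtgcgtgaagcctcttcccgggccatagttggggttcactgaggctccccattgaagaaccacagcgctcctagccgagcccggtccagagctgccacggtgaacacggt
TET2, primed-only region in an intron (chr4:105181362-105181561): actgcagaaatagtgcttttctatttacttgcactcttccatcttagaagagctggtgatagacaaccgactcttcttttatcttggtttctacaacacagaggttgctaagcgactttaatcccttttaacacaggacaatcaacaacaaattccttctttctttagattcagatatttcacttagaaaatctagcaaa

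The last sequence is the 200 bases before the 5′ end of DNMT3L, on the strand of the gene, shown because DNMT3L was the only one of the 8 genes with a BAF peak at its promoter in 1 state alone.
DNMT3L, before the gene, minus strand (chr21:44262217-44262416): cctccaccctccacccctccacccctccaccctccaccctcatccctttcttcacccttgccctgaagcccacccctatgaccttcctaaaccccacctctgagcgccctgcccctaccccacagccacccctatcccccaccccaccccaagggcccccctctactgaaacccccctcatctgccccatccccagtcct

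The sequence before DNMT3L held 1 CpG. In the 1001 bases centred on the annotated canonical start, DNMT3L had 23 CpGs, fewer than the median protein-coding gene with 66.0, and the other 7 members had between 62 (TET1) and 157 (DNMT3A).

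A few facts of the whole series limit what follows. BAF subunits have 1 library per antibody and state. SOX2 has 2 labelled libraries per state, but both naive lists gave 1940 peaks at identical positions, as did both primed lists with 9290 peaks, so each pair was counted as 1 sample. No comparison could therefore be tested over replicates. Exact (Clopper-Pearson) 95% intervals are given for shares and cover counting error only, since neighbouring peaks share a library and a locus. Read totals did not enter the counts. In the quality table of the study, the primed BRG1 and BAF155 libraries held more non-redundant uniquely mapped reads than the naive ones. Where no peak is given the signal did not pass the authors' caller, which is no proof of absence. The lists held 57884 naive and 15611 primed BRG1 peaks, 62338 and 58352 BAF155 peaks, and 17413 naive BRM peaks. The primed BRM list held 167 peaks, none of them at the 8 loci. At the promoters of 8 genes of the naive state (KLF17 and DPPA5 among them), BAF was called at 8 in naive and 4 in primed cells. Of 8 primed-state genes (ZIC2 and SFRP2 among them), 6 were called in naive and 8 in primed cells. The 5 genes of both states, with POU5F1 and NANOG, were called at 5 and 4 promoters, and the gene without a primed call was POU5F1. Of 8 genes of fibroblasts, endoderm and blood, 5 and 4 were called, with no call in either state at PTPRC, SPI1 or COL3A1.

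The first question was how the remodelling complex is placed at these loci in the 2 states. In naive cells BRG1 had 125 peaks, BAF155 had 148 and BRM had 48 over the 8 loci, and in primed cells BRG1 had 19 and BAF155 had 72. SOX2 had 2 peaks in naive and 7 in primed cells. Every locus had more BRG1 and more BAF155 peaks in the naive lists than in the primed ones. TET1 had the most naive BAF155 peaks (30) and DNMT3A the most naive BRG1 (24), primed BRG1 (7) and primed BAF155 peaks (17).

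**Figure D1:**
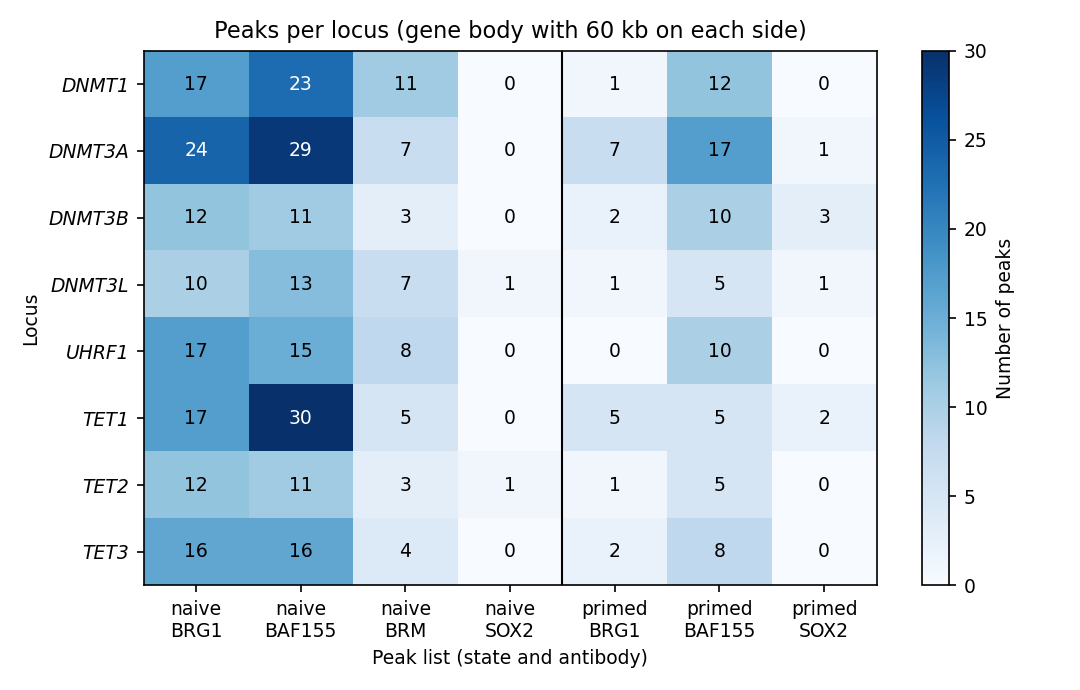
Number of peaks in each of the 7 lists (columns, naive left of the line and primed right) at each of the 8 loci (rows), with darker blue for more peaks. Naive BRG1 counts ran from 10 (DNMT3L) to 24 (DNMT3A), and primed BRG1 counts from 0 (UHRF1) to 7 (DNMT3A).

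Of all BRG1 peaks at the 8 loci, 86.8% (95% interval 80.2 to 91.9) were naive, against 78.8% over the windows of all protein-coding genes. Of all BAF155 peaks, 67.3% (60.6 to 73.4) were naive, against 53.2%. The BAF155 lists of the 2 states are of similar length, while the primed BRG1 list is much shorter than the naive one. With lists made equally long by keeping the peaks of highest fold, the naive shares were 64.8% for BRG1 and 65.0% for BAF155, against 49.3% and 51.5% over all loci. In the gene bodies alone, 78.0% of BRG1 peaks (39 of 50, interval 64.0 to 88.5) were naive, against 76.7% in all coding gene bodies. The full windows contain the gene bodies, so the overlap of this interval with their 86.8% cannot place the BRG1 excess. The flanks were not counted alone. For BAF155 the gene-body share was 67.9%, against 50.4%.

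BRG1 and BAF155 peaks of a state were merged into BAF regions and classed by overlap (at least 25% of either region) as naive-only, primed-only or common. The 8 loci held 109 naive-only, 16 primed-only and 53 common regions. A region could rest on a peak of either antibody alone. Both BRG1 and BAF155 were called at 10 of 25 naive-only regions of TET1 and 3 of 11 of DNMT3B, but at 9 of 10 of TET2. Among primed-only regions, BRG1 was called at 1 of 6 of DNMT3B, at 1 of 2 of TET2 and at none of the other loci. Naive-only regions made up 87.2% (80.0 to 92.5) of the state-specific ones, against 64.1% over all protein-coding loci. All 8 loci had more naive-only than primed-only regions, as did 66.2% of protein-coding loci. DNMT3L, TET1 and TET3 had at least 2 naive-only regions and no primed-only one, which was the case at 14.5% of protein-coding loci. When only peaks of at least 4-fold over input were kept, the order turned over, with 3 naive-only and 10 primed-only regions (23.1% naive-only, interval 5.04 to 53.8, against 23.4% over all loci). The naive lists had lower median folds than the primed ones (2.93 against 3.54 for BRG1 and 2.89 against 3.28 for BAF155), so that 1 fold limit removes more of the naive peaks. With lists of equal length, which keep the highest folds within each list, the naive-only share was 76.9% against 53.4% over all loci.

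High-copy sequence, measured as 14-base words that occur at least 10000 times in hg38 as those of the Alu family of interspersed repeats do, moved with this class. Windows of 200 bases made of such words for at least 50% of their length were found at the midpoint of 34 of 109 naive-only regions (31.2%, interval 22.7 to 40.8), 7 of 53 common regions (13.2%) and 0 of 16 primed-only regions, a count of 0 whose interval reaches 20.6%. Over the genome the shares were 15.2% of naive-only, 2.57% of common and 1.16% of primed-only regions. The words covered 13.3% of the genome. They covered 36.7% of the TET1 window, 36.6% of UHRF1, 35.1% of DNMT1 and 29.6% of DNMT3B, against 17.1% of DNMT3A, 14.6% of DNMT3L, 14.3% of TET3 and 12.9% of TET2. Without such regions, 75 naive-only and 16 primed-only regions remained, a naive-only share of 82.4% (73.0 to 89.6) against 60.1% over all protein-coding loci. Per the methods of the study, single-end reads were aligned with default bowtie2 settings, by which a read that maps to several places is kept at 1 of them, and no filter on mapping quality is described. The quality table of the study counts uniquely mapped reads, so which reads entered peak calling is unclear. In that table the uniquely mapped ratio was lower in the naive than in the primed BRG1 and BAF155 libraries. The part of repeats in the naive excess beyond the region counts above was not tested.

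**Figure D2:**
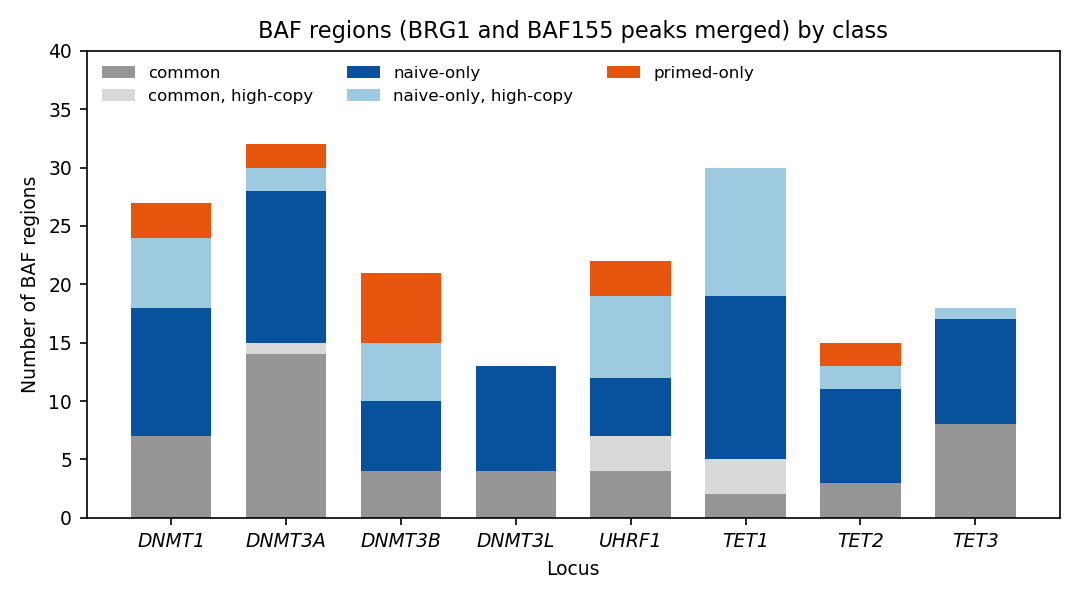
Number of BAF regions (vertical axis) of each class at the 8 loci, with lighter shades for regions whose midpoint window consists to at least 50% of high-copy words. Naive-only regions outnumber primed-only ones at all 8 loci, and 11 of the 25 naive-only regions of TET1 are high-copy, whereas none of the 9 of DNMT3L is.

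Per 100 kb of window, the members had a median of 6.61 naive-only regions, against 2.42 over all protein-coding loci, and 0.820 primed-only regions, against 0.899. TET1 stood highest with 9.84 naive-only regions per 100 kb, above 95.5% of protein-coding loci, and TET2 lowest with 3.94, above 66.2%. DNMT3B stood highest for primed-only regions with 3.59 per 100 kb, above 96.4% of loci. By role, the writers had 6.94 naive-only, 1.78 primed-only and 4.20 common regions per 100 kb, the cofactors 6.67, 0.953 and 3.49, and the erasers 5.99, 0.266 and 2.13. These role values rest on single loci. Among erasers, TET1 stood highest of the 8 for naive-only regions, while TET2 (3.94) and TET3 (4.11) stood lowest. Primed-only regions numbered 2 at erasers, both at TET2 (0.788 per 100 kb). Writers had 11, of which 6 were at DNMT3B, and DNMT1 had 1.38 and DNMT3A 0.852 per 100 kb.

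**Figure D3:**
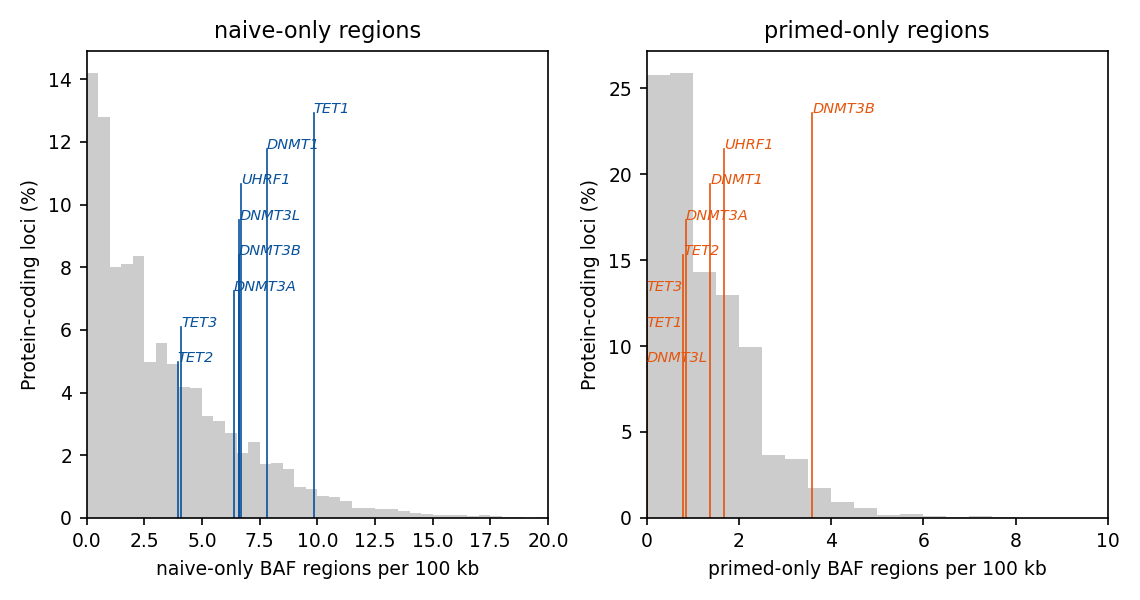
Naive-only (left) and primed-only (right) BAF regions per 100 kb of locus. Grey bars give the percent of all protein-coding loci in each bin of 0.5 per 100 kb (the last naive-only bin also holds higher values), and coloured lines mark the 8 members (their height has no meaning). DNMT3B lies far to the right among primed-only densities, and TET1 among naive-only ones.

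Naive-only regions lay mostly away from promoters. Of the 109, 14 (12.8%) lay within 1 kb of an annotated start of some gene, 60 in introns (55.0%) and 32 between genes (29.4%). Of the 53 common regions, 26 (49.1%) lay at promoters. Over all protein-coding loci the promoter shares were 14.6% and 56.3%. The windows also hold other genes, and a member had the nearest protein-coding start for 52 of 109 naive-only regions (47.7%) and 8 of 16 primed-only ones.

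**Figure D4:**
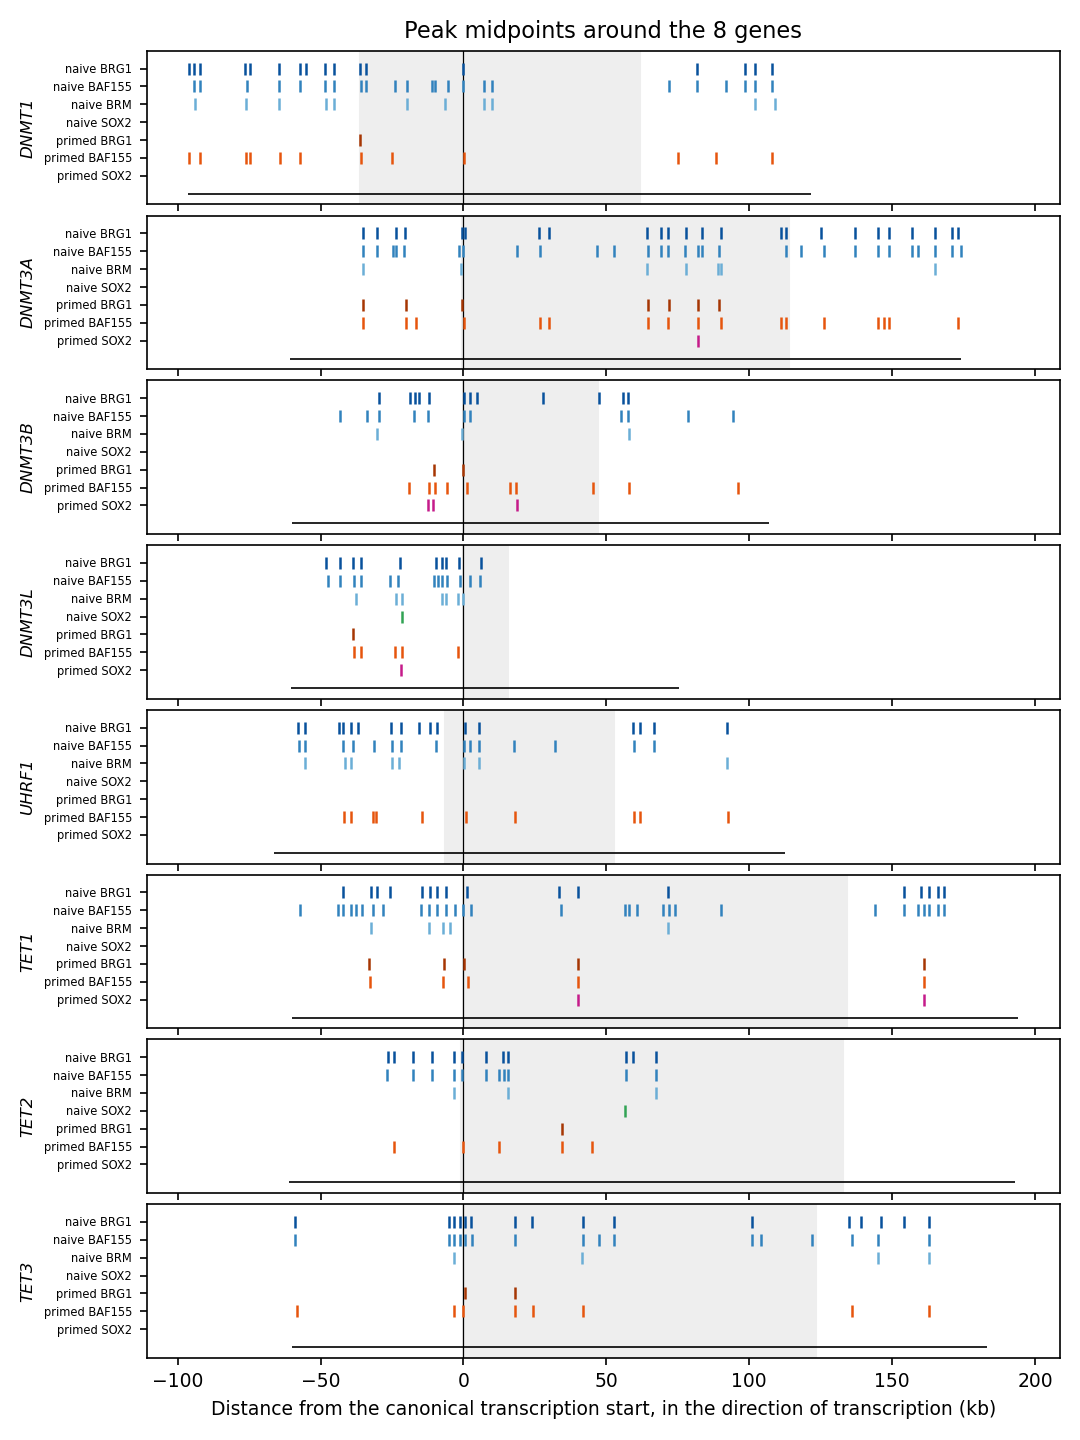
Midpoints of all peaks of the 7 lists (1 line of ticks each) by distance in kb from the canonical start, in the direction of transcription, with the gene body shaded and the window as a black line. Tick columns at 0 are promoter peaks, present in a primed list for all genes but DNMT3L, and TET2 has no peak more than 67.5 kb downstream of its start.

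The writers came first. DNMT1 (ENSG00000130816.17, chr19:10133342-10231286, minus strand) had 17 naive BRG1, 23 naive BAF155, 11 BRM, 1 primed BRG1 and 12 primed BAF155 peaks, with no SOX2 peak in either state. Its 17 naive-only regions stood against 3 primed-only and 7 common ones. All 7 common regions lay at promoters. Of these, 2 lay at starts of DNMT1, 1 of them close to the start of the neighbour S1PR2 as well. The others lay at neighbours such as SHFL and ICAM genes.

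At its canonical start, DNMT1 had naive BRG1 at 2.60-fold over input, naive BAF155 at 2.76-fold and primed BAF155 at 3.44-fold, and no BRM or primed BRG1 peak. A start of longer annotated transcripts at -36.3 kb (distances below are in kb from the canonical start, negative for upstream) carried BRG1 and BAF155 in both states, at 3.17-fold and 3.01-fold in naive and 2.94-fold and 3.07-fold in primed cells. The start of the neighbour S1PR2 lies close by, so these peaks cannot be assigned to DNMT1 alone. They include the single primed BRG1 peak of the locus. The highest BRM peak of any member lay inside DNMT1, 10.1 kb downstream of the canonical start (chr19:10184705-10184931), at 5.36-fold, rank 432 of the list. It fell in a naive-only region with a BAF155 peak at 2.92-fold. High-copy words made up most of the midpoint window in 6 of the 17 naive-only regions.

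DNMT3A (ENSG00000119772.19, chr2:25227855-25342590, minus strand) was the locus with the most regions common to both states, 15, beside 15 naive-only and 2 primed-only ones. Its 6.39 common regions per 100 kb exceeded those of 94.6% of protein-coding loci. It also held the highest peak at a canonical start, primed BRG1 at 5.22-fold, above 95.6% of that list, with primed BAF155 at 4.47-fold. In naive cells the same promoter had BRG1 at 3.35-fold, BAF155 at 3.53-fold and BRM at 3.13-fold. Folds of different libraries depend on their inputs and depth and were not compared further.

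An internal start of DNMT3A, 89.7 kb downstream, where shorter annotated transcripts begin, was called in both states as well. There BRM reached 3.28-fold and BRG1 3.00-fold in naive cells, and BRG1 4.67-fold in primed cells. The only SOX2 peak of the locus was primed (chr2:25259662-25259891, intron, 6.62-fold, rank 4802) and sat in a common region with primed BRG1 at 3.77-fold and BAF155 at 4.02-fold. Its midpoint window held none of the motifs searched.

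DNMT3B (ENSG00000088305.19, chr20:32762385-32809359, plus strand) departed from the other loci. It had 11 naive-only, 6 primed-only and 4 common regions, the largest primed-only count of the 8, and 5 of its naive-only regions were high-copy. Without those, 6 naive-only stood against 6 primed-only regions. Among regions nearest to its own starts, 3 were naive-only and 4 primed-only, and within the gene body 2 and 3. Its naive excess thus came from the flanks, where COMMD7, ENSG00000285382, MAPRE1 and EFCAB8 lie.

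Its promoter was called in both states, with naive BRG1 at 3.52-fold, BAF155 at 3.09-fold and BRM at 3.01-fold, and primed BRG1 at 3.82-fold and BAF155 at 3.88-fold. Of the 7 primed SOX2 peaks at the 8 loci, 3 were at DNMT3B, and there was no naive one. Its 1.80 primed SOX2 peaks per 100 kb exceeded those of 97.4% of protein-coding loci. The strongest (chr20:32780772-32781156) stood at 19.2-fold, rank 180 of 9290, 18.6 kb inside the gene and 0.640 kb from an internal annotated start. The next (chr20:32751728-32752106) stood at 15.0-fold, rank 468, at -10.5 kb. Its nearest protein-coding start, 8.35 kb away, was that of the neighbour ENSG00000285382.

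Both of these peaks, whose sequences are printed above, lay in primed-only BAF regions. The intragenic one carried primed BAF155 at 2.85-fold, and the upstream one primed BRG1 at 3.12-fold and BAF155 at 3.93-fold. The third SOX2 peak (chr20:32749981-32750271, 6.56-fold) lay at -12.3 kb in a common region with naive BRG1 at 3.49-fold. It too was nearest to the start of ENSG00000285382. A further primed-only region with BAF155 at 5.04-fold (chr20:32807816-32808036) overlapped an exon near the 3′ end of the gene.

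Among the cofactors, DNMT3L (ENSG00000142182.9, chr21:44246339-44262216, minus strand) had 10 naive BRG1, 13 naive BAF155, 7 BRM and 1 naive SOX2 peak, against 1 primed BRG1, 5 primed BAF155 and 1 primed SOX2 peak. It had 9 naive-only, 4 common and no primed-only regions, and none of its naive-only regions was high-copy. Its 5.15 BRM peaks per 100 kb exceeded those of 94.8% of protein-coding loci.

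At the DNMT3L promoter naive BRG1 stood at 3.56-fold, BAF155 at 3.44-fold and BRM at 3.55-fold, and neither primed list had a peak. The nearest primed BAF155 peak (chr21:44263470-44264074, 3.92-fold) lay at -1.88 kb. It overlapped a naive region that also covers the promoter, so the merged region counts as common. With a promoter window of 2.5 kb, DNMT3L was called in primed cells too. Upstream of it, 3 naive-only regions lay in a row at -6.15, -7.43 and -9.62 kb, and the first (its midpoint printed above) had naive BRG1 at 3.14-fold, BAF155 at 3.50-fold and BRM at 2.64-fold.

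The SOX2 peak of DNMT3L was the only one called in both states, with the same summit, at 7.29-fold in naive and 4.87-fold in primed cells. It lay at -21.6 kb and 2.38 kb from the start of AIRE, the autoimmune regulator gene, in a common region with BRM at 4.11-fold.

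UHRF1 (ENSG00000276043.5, chr19:4903080-4962154, plus strand) was the only locus with no primed BRG1 peak in its window, against 17 naive ones. BAF155 had 15 naive and 10 primed peaks, and BRM had 8. Its promoter was called in naive cells with BRG1 at 3.20-fold, BAF155 at 3.48-fold and BRM at 3.07-fold, and in primed cells with BAF155 at 3.03-fold. Of its 12 naive-only regions only 2 were nearest to UHRF1, and the rest to PLIN3, ARRDC5 or KDM4B. High-copy words marked 7 of the 12, which leaves 5 naive-only against 3 primed-only regions.

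Among the erasers, TET1 (ENSG00000138336.9, chr10:68560337-68694487, plus strand) had the largest number of naive-only regions, 25, with 5 common and no primed-only ones. At −log10 q of at least 3 it had 5 naive-only and 4 primed-only regions, and with lists of equal length 18 and 2. The 25 regions spread over the upstream flank (12), the gene body (8) and the downstream flank (5), and 11 had TET1 as the nearest coding gene. High-copy words marked 11 of the 25, and both BRG1 and BAF155 were called at 10 of the 25. The counts of naive BAF155 and primed BAF155 peaks were 30 and 5, and those of BRG1 were 17 and 5.

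The TET1 promoter was called in both states, at 2.74-fold (BRG1) and 2.89-fold (BAF155) in naive and at 3.43-fold and 3.63-fold in primed cells. A primed SOX2 peak (chr10:68600228-68600627, 7.90-fold, rank 3244) lay 40.1 kb into the gene, under the highest primed BAF155 peak of the locus (5.04-fold) and a primed BRG1 peak at 3.27-fold, and naive BRG1 was called there at 2.40-fold. The second primed SOX2 peak (chr10:68720940-68721196, 7.10-fold) lay at the promoter of the neighbour CCAR1.

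TET2 (ENSG00000168769.14, chr4:105145875-105279816, plus strand) had 10 naive-only, 2 primed-only and 3 common regions, and its own starts were the nearest protein-coding ones for all of them. No peak of any list lay more than 67.5 kb downstream of its start. The naive SOX2 peak (chr4:105203255-105203703, 7.91-fold, rank 767 of 1940) lay 56.6 kb into the gene in a naive-only region with BRG1 at 3.23-fold and BAF155 at 3.13-fold. Its window held no high-copy words, a measure that does not detect the stretch repeated within the window. The naive-only region of highest fold lay 67.5 kb in (BAF155 at 4.26-fold, BRG1 at 3.54-fold) and was high-copy to 72.5%. The primed-only region printed above, 34.6 kb in, had primed BRG1 at 3.49-fold, the only primed BRG1 peak of the locus, and BAF155 at 4.75-fold.

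TET3 (ENSG00000187605.16, chr2:73984910-74108176, plus strand) had 10 naive-only and 8 common regions and no primed-only one, and 1 of its naive-only regions was high-copy. Its promoter was called at 2.98-fold (BRG1) and 3.32-fold (BAF155) in naive and 3.89-fold and 3.70-fold in primed cells. A second start 17.8 kb downstream was also called in both states, with BAF155 at 4.44-fold in naive and 3.52-fold in primed cells. Its highest naive peaks (BAF155 at 4.68-fold, BRG1 at 4.02-fold) lay at the promoter of the neighbour BOLA3.

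At the promoters of the 8 genes most calls were shared by the 2 states. A naive BRG1 or BAF155 peak lay within 1 kb of an annotated start of all 8 genes (73.0% of protein-coding genes), and a primed one at 7 (72.9%), all but DNMT3L. For BRG1 alone the counts were 8 in naive (66.9% of genes) and 5 in primed cells (33.8%), without DNMT3L, UHRF1 and TET2. DNMT1 was counted in primed cells only through its start at -36.3 kb, close to that of S1PR2, and not the canonical one. With 8 genes, these counts were not read as a difference from the background. At the fold limit of 4, 1 promoter was called in each state.

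BRM, called only in naive cells at these loci, was found in all 8 windows (70.2% of protein-coding loci) and at the promoters of 5 genes (22.6%): DNMT1, DNMT3A, DNMT3B, DNMT3L and UHRF1. No TET promoter had one. For DNMT1 these BRM peaks lay at other starts (at 10.4 and -6.24 kb) and not at the canonical one. Per 100 kb, cofactors had 4.76 BRM peaks, writers 3.39 and erasers 1.60, and the median over all protein-coding loci was 0.776. The order by role did not hold locus by locus. Among writers DNMT1 had 5.05, DNMT3A 2.98 and DNMT3B 1.80, while the TET genes had 1.18 to 1.97. Of 166 naive BAF regions, 43 held a BRM peak (25.9%, interval 19.4 to 33.3), against 20.9% over all loci, a share within the interval. Of the 48 BRM peaks, 47 overlapped a naive BAF region (97.9%, interval 88.9 to 99.9). The study reports that most BRM peaks of the whole list were shared with its naive BAF peaks. The count was therefore not read as particular to these loci. BRM marked 21 of 53 common regions (39.6%) and 22 of 109 naive-only ones (20.2%), with 32.2% and 14.6% over all loci.

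**Figure D5:**
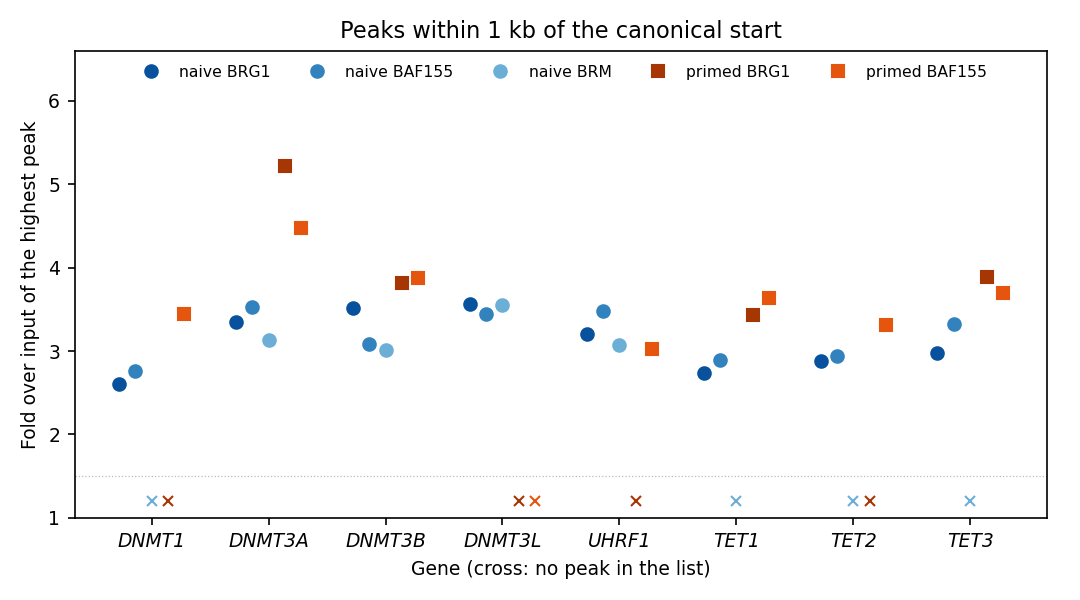
Fold over input of the highest peak within 1 kb of the canonical start (vertical axis) for each gene and list, with circles for naive and squares for primed lists, and crosses near the bottom where a list had no peak. DNMT3L has 3 naive and no primed peaks, and the 3 TET genes and DNMT1 have no BRM peak.

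SOX2 peaks were few. A primed SOX2 peak lay in 4 of the 8 windows (DNMT3A, DNMT3B, DNMT3L and TET1), against 42.5% of protein-coding loci, and a naive one in 2 (DNMT3L and TET2), against 13.2%. At promoters the counts were 1 primed, at the internal DNMT3B start (5.63% of genes), and 0 naive (0.660% of genes). Of the 9 peaks, 7 were primed (77.8%, interval 40.0 to 97.2), against 81.9% over all loci. All 9 lay in BAF regions, 6 of them common, 2 primed-only and 1 naive-only. The share of all SOX2 peaks that lie in BAF regions was not computed, so this count was not read as particular to these loci.

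Motif matches in the 200-base midpoint windows of the BAF regions were mostly near those over all loci. The SOX core was found in 16.5% of the 109 naive-only regions (21.6% over all loci), 17.0% of the 53 common (16.9%) and 31.2% of the 16 primed-only ones (33.4%). The TFAP2 palindrome was found in 4.59% of naive-only regions, interval 1.51 to 10.4, against 10.6%, and in 4 of the 16 primed-only regions (25%, interval 7.27 to 52.4), against 6.77%. The KLF core was found in 24.5% of common regions, interval 13.8 to 38.3, against 12.2%. A match describes the sequence only.

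Of 33 other genes of DNA methylation and its readout, 23 (69.7%) had more naive-only than primed-only regions in windows of the same kind, near the 66.2% of all protein-coding loci, 8 had fewer and 2 as many. Per 100 kb their medians were 3.80 naive-only and 1.49 primed-only regions, against 6.61 and 0.820 for the 8 members and 2.42 and 0.899 over all loci. A primed SOX2 peak lay in 22 of the 33 windows (66.7%, against 42.5%) and a naive one in 5 (15.2%, against 13.2%). High-copy regions and regions nearest to other genes were not set apart in these 33 windows. The largest naive excess was at GADD45B (22 naive-only against 1 primed-only), a factor linked to active demethylation, at MBD3 (20 against 1), a subunit of the NuRD repressor complex, and at DPPA3 (19 against 0), which opposes maintenance methylation through UHRF1. The largest primed excess was at SMUG1 (8 primed-only against 3 naive-only), a uracil DNA glycosylase, and at CXXC4 (4 against 0), a CXXC zinc finger protein that binds unmethylated CpGs, followed by HELLS, TRDMT1 and MBD4 with an excess of 3 each. DPPA3 and ZFP57, like DNMT3L, had a naive but no primed BAF peak at the promoter, and MBD1 and SMUG1 had the reverse. The share of all protein-coding genes with either pattern was not computed.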

How the data were processed

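Peak lists from WIBR3 hESCs were analysed on hg38, with groups taken from the sample labels. Per the methods of the study, reads were trimmed, mapped with bowtie2 and freed of duplicates, and the authors called peaks with MACS2 against input, narrow for SOX2 and broad for BAF subunits. The submitters' processing notes name Bowtie2 2.3.4, SAMtools 0.1.19 and FastQC 0.10.1. For each peak, most deposited lists hold the caller's score, its −log10 p and q values and its enrichment over input as a linear fold, all computed by the authors. Positions without values were deposited for primed BRM and for 1 of the SOX2 libraries per state. Scores were not used, and fold and −log10 q served only to describe, rank or filter peaks. Per the labels, SOX2 libraries were read paired-end and BAF libraries single-end, in different facilities. The lists themselves carry no read totals, and those of the study were not used in any count.

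A peak or region belonged to a locus when its midpoint lay in the gene body (GENCODE release 44) with 60 kb on each side. The 8 windows do not overlap, and the same counts were made for all 20007 protein-coding genes. Promoters reached 1 kb to either side of any annotated start, and distances were taken from the canonical start. Overlap followed the study (25% of either region). High-copy words were 14-base words found at least 10000 times on both strands of hg38. This measure was chosen after seeing the data. RefSeq promoter tables (GRCh38.p14) were not needed, and sequences came from hg38. Some sequences are not reported here. Shares carry exact 95% intervals, and no p-value was computed, since every group has 1 distinct list. Overlap, class and motif code was tested on simulated peaks (6 of 6 checks recovered). Python 3.11.15, pandas 2.3.3, scipy 1.17.1 and pysam 0.24.0 were used. The 8 members, the gene lists and the named items (all members, every SOX2 peak, the peak of highest fold per list and the 3 other genes of largest excess in each direction, 5 for the primed direction because of a tie) were chosen with earlier results of these data known. Alternatives covered the flank, the −log10 q and fold limits, list length, overlap rule and promoter window.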

Additional observations from a re-analysis of the deposited data

How the results depend on the processing

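No paired analysis was possible because the 2 SOX2 lists of a state held identical coordinates, so that leaving out either library gave the same primed share of SOX2 peaks (77.8% to 77.8%), and all other groups have 1 list. Of the choices below, 2 were added after seeing the data, which are the nearest-start rule and the removal of high-copy regions. The naive-only share of state-specific regions, 87.2%, moved to 76.9% with lists of equal length, 74.5% when overlap needed 50% of both regions, 62.1% at −log10 q of at least 3 and 23.1% at 4-fold or more, where it fell below that of primed-only regions. Over all protein-coding loci the share moved in the same direction under these settings, to 53.4%, 60.8%, 46.3% and 23.4%. The naive share of BRG1 peaks was 78.0% in gene bodies alone, 64.8% with equal lists and 25% at 4-fold (1 of 4 peaks), against 76.7%, 49.3% and 46.9% over all loci, and that of BAF155 peaks was 51.9% at the stricter q and 30.8% at 4-fold, against 41.0% and 23.5%. Naive BAF regions with BRM made up 9.04% under the 50% overlap, against 7.32%. Naive promoter calls numbered 5 and primed ones 6 at the stricter q, an order opposite to 8 and 7, and 1 in each state at 4-fold. The difference of naive-only minus primed-only regions turned negative at DNMT3B in gene bodies (-1), among regions nearest to it (-1), at the stricter q (-3) and at 4-fold (-2), and at 4-fold also at DNMT3A (-4), DNMT3L (-1) and TET1 (-1). With a 20 kb flank or either other overlap rule, it stayed positive at all 8 loci. The cause of these shifts was not tested. Without replicates, library and state cannot be told apart.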
